A study of Mus musculus with 12 samples.

Results

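The genes described here are 10 members of the interleukin-1 (IL-1) family and the inflammasome, chosen by name: the cytokines Il1a, Il1b and Il18, the receptor antagonist Il1rn, the receptor chains Il1r1 and Il1rap, the inflammasome sensor Nlrp3, its adaptor Pycard, and the inflammatory caspases Casp1 and Casp4. All 10 symbols were found among the 40853 gene symbols of the deposited tables. RNA had been sequenced from microglia and from astrocytes, which were sorted by flow cytometry out of dissociated whole brains of mice aged 8 to 9 weeks. All animals had received 1 mg/kg lipopolysaccharide (LPS), a component of the bacterial outer membrane, by intraperitoneal injection 20 h earlier. The animals were either wild type (WT) or labelled as knockout (KO) for Kpna4, which encodes importin α4, an adaptor that carries proteins into the nucleus. There were 4 groups of 3 libraries: WT microglia, KO microglia, WT astrocytes and KO astrocytes. The labels tie them to 6 animals, 3 of each genotype, and each animal gave 1 microglia and 1 astrocyte library. Animals without LPS were not analysed here, so no value below is a response to LPS.

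IL-1α and IL-1β are cytokines that bind the same receptor, built from the ligand-binding chain Il1r1 and the accessory chain Il1rap, and signal through MYD88 and IRAK kinases to NF-κB. The receptor antagonist encoded by Il1rn occupies that receptor without signalling. IL-1β and IL-18 are made as inactive precursors that caspase-1 cleaves inside an inflammasome, a complex in which a sensor such as NLRP3 recruits caspase-1 through the adaptor ASC, the product of Pycard. Casp4 encodes an inflammatory caspase that binds LPS inside the cell. Cleavage and release are protein events that RNA counts do not measure.

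Microglia libraries held 10.3 M to 14.5 M counts and astrocyte libraries 10.7 M to 15.6 M. For a count of 0, 3 counts were set as an approximate upper limit, which is not an absolute bound. That limit came to 0.193 to 0.291 CPM (the count scaled to a common library total of 1 M). Full-length cDNA was amplified without molecular identifiers, and such limits cover counting error only. Kpna4 itself averaged 84.4 ± 14.8 CPM (SD, n = 3) over WT and 69.0 ± 9.41 (SD, n = 3) over KO microglia. In WT astrocytes it averaged 49.6 ± 8.81 and in KO astrocytes 64.4 ± 18.6 CPM. These ranges overlapped in both cell types. The labels do not say which part of the gene is deleted, so its total count is not a check of the genotype, and KO below means the libraries labelled KO. The sorted types carried their markers: the 10 microglia markers summed to between 15942 and 20014 CPM in microglia and between 157 and 584 in astrocytes. The 10 astrocyte markers summed to between 333 and 727 CPM in microglia and between 16917 and 22446 in astrocytes.

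Most of these genes were microglial. Il1a, Il1b, Nlrp3, Pycard, Casp1, Casp4 and Il1rn were called higher in microglia than in astrocytes (edgeR's quasi-likelihood test over all 12 libraries, Benjamini-Hochberg adjusted p under 0.05 across 17294 genes), by 7.41-fold to 45.6-fold. Casp1, Casp4 and Il1rn had 0 to 27 counts per astrocyte library and did not pass the filter on low counts in astrocytes alone. They entered this fit through their microglia counts, which favours a call in that direction. Il18 was the only member called higher in astrocytes, by 2.88-fold. The receptor chains Il1r1 and Il1rap passed in neither direction. Among all genes tested, 28.2% were called higher in microglia and 36.4% higher in astrocytes. The median log2 fold change was 4.64 over the 10 members and -0.19 over all genes. The 10 genes together took 0.0928% to 0.135% of the counts of a microglia library and 0.00937% to 0.0157% of the counts of an astrocyte library. Il1a, Il1b, Nlrp3 and Pycard made up 89.1% to 92.97% of the members' counts in microglia, while Il18 alone made up 43.5% to 74.4% of them in astrocytes. In sorted bulk samples, fewer cells that express a gene and less RNA per cell cannot be told apart.

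**Figure D1:**
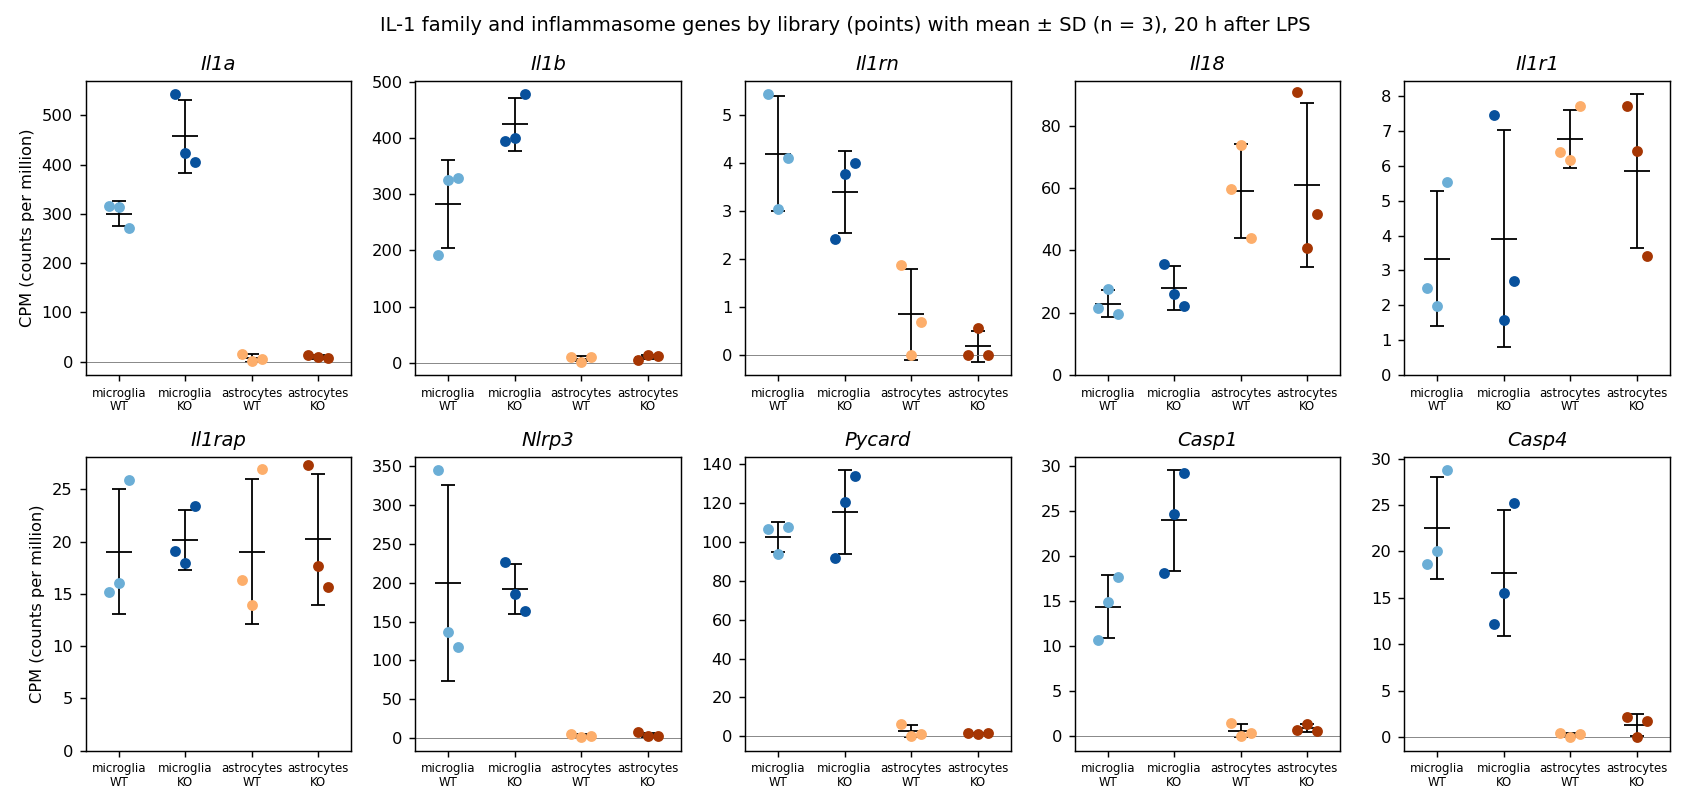
Each panel plots 1 gene, with CPM on a linear y axis that differs between panels and the 4 groups on the x axis; points are libraries and bars are the mean ± SD of 3 libraries. Il1a, Il1b, Nlrp3, Pycard, Casp1 and Casp4 lie near 0 in astrocytes, Il18 is higher in all 6 astrocyte libraries than in any microglia library, and Il1r1 and Il1rap overlap between the cell types.

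Among the ligands, Il1a, which encodes IL-1α, was at 316, 313 and 272 CPM in WT microglia and at 542, 423 and 405 CPM in KO microglia (replicates 1, 2 and 3). WT astrocytes had 15.97, 1.54 and 6.08 CPM, and KO astrocytes 13.8, 9.68 and 6.81 CPM. All microglia libraries were far above all astrocyte libraries, and the lowest astrocyte value was in WT replicate 2. Microglia exceeded astrocytes by 5.10 on the log2 scale (SE 0.41, edgeR adjusted p = 5.70e-08), which is 34.2-fold. Il1b, which encodes IL-1β, was at 192, 325 and 330 CPM in WT microglia and at 396, 400 and 479 CPM in KO microglia. WT astrocytes had 9.57, 1.79 and 9.02 CPM of it, and KO astrocytes 5.10, 12.8 and 11.8 CPM. As with Il1a, the cell types were far apart and the lowest astrocyte value was in WT replicate 2. Il1b was higher in microglia by 5.09 on the log2 scale (SE 0.38, edgeR adjusted p = 2.27e-08).

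Il18, the cytokine with the opposite pattern, was at 21.4, 27.7 and 19.5 CPM in WT microglia and at 35.8, 26.0 and 22.2 CPM in KO microglia. WT astrocytes held 59.7, 74.1 and 43.9 CPM, and KO astrocytes 90.9, 40.8 and 51.6 CPM. The lowest astrocyte library lay above the highest microglia library. The log2 fold change of microglia over astrocytes was -1.53 (SE 0.22, edgeR adjusted p = 2.01e-05). Relative to the median of all genes in this fit, the difference was -1.33. Scaling by library totals alone moved that median from -0.19 to 0.09, and Il18 was called lower in microglia under every alternative that was run, with log2 fold changes of -1.56 to -1.25.

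Il1rn, the receptor antagonist, had few counts. It was at 5.43, 3.05 and 4.11 CPM in WT microglia and at 2.42, 3.76 and 3.99 CPM in KO microglia. The 6 astrocyte libraries had 1.87, 0 and 0.684 CPM in WT and 0, 0.558 and 0 CPM in KO, from 26, 0, 10, 0, 6 and 0 counts. All microglia libraries were above all astrocyte libraries, but 3 of the 6 astrocyte libraries had no count. The approximate upper limits there were 0.244, 0.255 and 0.193 CPM. Il1rn was higher in microglia by 2.89 on the log2 scale (SE 1.07, edgeR adjusted p = 0.0274). This call was lost without WT replicate 3 (2.93, adjusted p = 0.0716) and without KO replicate 3 (2.73, adjusted p = 0.0522), each leaving out both libraries of the animal.

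Promoter sequences of the 3 agonist cytokines are shown because Il1a and Il1b share the microglial pattern and Il18 has the opposite one. They come from RefSeq on the mouse build GRCm38.p6, which is not the build of the counts, and were matched by symbol for all 10 genes, with 15 promoters in all. Each sequence is the 80 bases that end just before the annotated start of transcription, 5′ to 3′ on the gene's own strand, and capitals mark the matches to the motifs named next.
Il1a, chr2:129309973-129310052, minus strand: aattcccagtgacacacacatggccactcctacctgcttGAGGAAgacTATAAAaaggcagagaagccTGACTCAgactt
Il1b, chr2:129371140-129371219, minus strand: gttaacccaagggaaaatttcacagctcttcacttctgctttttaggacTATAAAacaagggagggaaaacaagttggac
Il18, chr9:50554620-50554699, plus strand: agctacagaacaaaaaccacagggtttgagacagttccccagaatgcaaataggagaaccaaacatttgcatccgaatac
The 250 bases before each start were searched on both strands for 6 motifs, over 32851 promoters. The TATA box letters TATAAA were in 12.4% of all promoters. They lay 32 to 27 bases before the start of Il1a and 31 to 26 bases before the start of Il1b, whereas the match of Il18 was on the other strand, 175 to 170 bases before its start and outside the stretch printed. The AP-1 letters TGANTCA were in 6.75% of promoters and in those of Il1a and Il1rn. In Il1a they ended 6 bases before the start, close to a match of the ETS letters GAGGAA, which were in 23.3% of promoters and also in those of Pycard, Casp1 and Nlrp3. The C/EBP letters TTGCNNAA were in 9.56% of promoters and in those of Il1r1 and Pycard. The NF-κB consensus was in 7.25% of promoters and in 4 of the 15 promoters of the members, which belong to Il1r1, Casp4 and Nlrp3. The Casp4 promoters among these overlap almost wholly and hold the same matches, so that the same stretch is counted more than once. In Il1r1 and Nlrp3 it lay in another promoter than the C/EBP and ETS matches. The shares are per promoter, while a gene is named here if any of its promoters had a match. In Casp4 the matches lie at separate places, 93 to 83 and 39 to 30 bases before the first of its annotated starts, and overlap each other in the former. The interferon-stimulated response element consensus was in 2.98% of promoters and in none of these genes within the window. A match is a string of letters and not a measured binding site.

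Of the receptor chains, Il1r1 was at 2.49, 1.97 and 5.55 CPM in WT microglia and at 7.46, 1.59 and 2.69 CPM in KO microglia, and at 6.40, 6.18 and 7.73 CPM in WT astrocytes and 7.74, 6.42 and 3.40 CPM in KO astrocytes. Microglia were lower in most libraries, but the ranges overlapped. KO microglia replicate 1 was as high as the astrocytes, and WT microglia replicate 3 also lay above KO astrocyte replicate 3. Microglia minus astrocytes came to -1.10 on the log2 scale (SE 0.49, edgeR adjusted p = 0.0600), which is -0.91 relative to the median of all genes. With DESeq2 the same difference was called (-1.11, adjusted p = 0.0295), and over all alternatives the adjusted p ran from 0.0295 to 0.308. Il1rap, the accessory chain that the receptors for IL-1, IL-33 and IL-36 share, was at 15.2, 16.1 and 25.9 CPM in WT microglia, 19.1, 18.0 and 23.4 CPM in KO microglia, 16.3, 13.9 and 26.9 CPM in WT astrocytes and 27.4, 17.7 and 15.7 CPM in KO astrocytes. The 4 groups overlapped throughout. Il1rap differed by -0.28 (SE 0.24, edgeR adjusted p = 0.329) and -0.08 relative to the median of all genes, the smallest difference between the cell types among the 10 members.

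The inflammasome components were microglial. Nlrp3, the sensor, was at 345, 136 and 118 CPM in WT microglia and at 226, 185 and 164 CPM in KO microglia, against 5.90, 1.71 and 3.08 CPM in WT astrocytes and 7.74, 3.35 and 3.40 CPM in KO astrocytes. Its highest value by far was in WT microglia replicate 1. Nlrp3 was higher in microglia by 5.31 on the log2 scale (SE 0.39, edgeR adjusted p = 1.84e-08). Pycard, the adaptor, was at 107, 93.6 and 108 CPM in WT microglia and at 92.0, 120 and 134 CPM in KO microglia. Astrocytes had 6.12, 0.325 and 1.37 CPM of it in WT and 1.87, 1.12 and 1.48 CPM in KO. The cell types did not overlap. Pycard had the largest difference of the 10 members, 45.6-fold, or 5.51 on the log2 scale (SE 0.46, edgeR adjusted p = 7.97e-08).

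Casp1, the caspase that cleaves the precursors of IL-1β and IL-18, was at 10.6, 14.8 and 17.6 CPM in WT microglia and at 18.0, 24.6 and 29.1 CPM in KO microglia. Astrocytes had 1.37, 0 and 0.273 CPM in WT and 0.680, 1.303 and 0.514 CPM in KO, so that every microglia library was above every astrocyte library. Casp1 was higher in microglia by 4.45 on the log2 scale (SE 0.60, edgeR adjusted p = 1.26e-05). Casp4 was at 18.6, 20.1 and 28.8 CPM in WT microglia and at 12.2, 15.6 and 25.2 CPM in KO microglia. Its astrocyte values were 0.432, 0 and 0.342 CPM in WT and 2.21, 0 and 1.73 CPM in KO, with no count in replicate 2 of either genotype. The cell types did not overlap here either, and Casp4 was higher in microglia by 4.82 on the log2 scale (SE 0.65, edgeR adjusted p = 1.25e-05).

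The astrocyte values were also expressed as a percent of the microglia value of the same animal. Over the 6 animals Il1a in astrocytes was at 0.494% to 5.05% of its microglia level (median 2.26%), Il1b at 0.550% to 4.99% (median 2.60%), Nlrp3 at 1.25% to 3.42% (median 1.94%) and Pycard at 0.348% to 5.74% (median 1.19%). The summed microglia markers in astrocytes were at 0.969% to 3.61% of their microglia level (median 1.96%). The percentages of the 4 genes thus lay around those of the microglia markers, and the animal with the lowest marker percent, WT replicate 2, also had the lowest percent of all 4. The part of microglial RNA in the astrocyte counts of these genes was not tested. Casp1 and Casp4 had medians of 2.77% and 1.75% but ranged from 0 to 12.9% and 18.1%, on few counts. Il18, at 157% to 279% of the microglia level (median 243%), and Il1rap, at 66.9% to 143% (median 101%), were well above the marker percent in every animal.

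**Figure D2:**
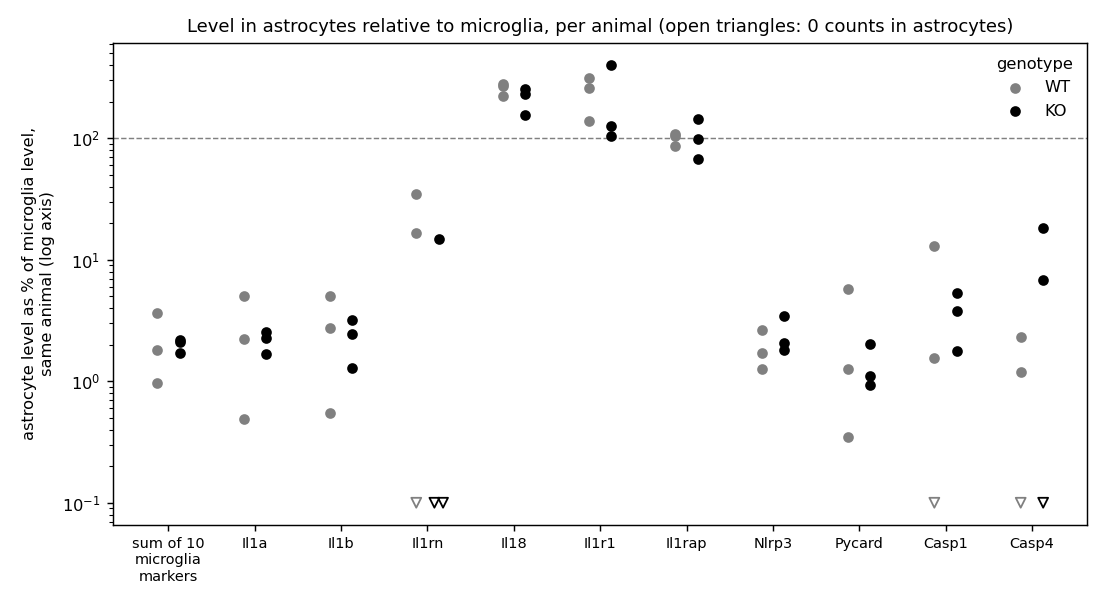
The y axis, on a log scale, gives the CPM of a gene in the astrocyte library as a percent of its CPM in the microglia library of the same animal, and each point is 1 animal, grey for WT and black for KO. Il1a, Il1b, Nlrp3 and Pycard lie near the summed microglia markers (median 1.96%), whereas Il18, Il1r1 and Il1rap lie near or above the dashed line at equal levels.

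Other cells than those sorted could carry some of these transcripts. In microglia the 10 neutrophil markers summed to 458 to 521 CPM in WT and 471 to 521 CPM in KO, nearly all of it Csf3r at 455 to 514 CPM, whereas S100a8 reached at most 3.35 CPM and Ly6g at most 0.989 CPM and was 0 in most libraries. The 7 monocyte markers summed to 63.0 to 152 CPM in WT and 101 to 146 CPM in KO microglia, mostly F13a1, with Ccr2 at no more than 3.12 CPM. The 7 markers of border macrophages, the macrophages of the meninges and perivascular spaces, summed to 131 to 264 CPM in WT and 150 to 241 CPM in KO microglia. The 6 T and B cell markers reached at most 0.388 CPM. All 6 of these were at 0 in WT microglia. Other neutrophil and monocyte markers were low, and some, such as Camp and Chil3, had no count in part of the libraries of both genotypes. The neutrophil marker S100a9 was at 1.97 to 15.5 CPM in WT and 3.51 to 5.23 CPM in KO microglia. Border macrophage markers such as Mrc1, at 67.9 to 144 CPM, were present in both genotypes. The part of these cells in the cytokine counts was not tested. In astrocytes, markers of further cells were higher than in microglia: 8 of 8 for oligodendrocytes (sums of 888 to 4100 CPM against 287 to 1752), 8 of 8 for pericytes and mural cells (369 to 524 against 8.14 to 32.6), 6 of 6 for fibroblasts (83.6 to 153 against 8.06 to 23.4) and 8 of 8 for neurons (77.6 to 147 against 10.96 to 24.04). So were 8 of 10 endothelial markers and 5 of 7 ependymal and choroid plexus markers, but the sums of both lists overlapped between the cell types. The endothelial sums were 34.9 to 148 CPM in astrocytes against 32.8 to 98.3, and the ependymal and choroid plexus sums 778 to 1329 against 345 to 2131. Ttr, most of the latter, and Kl went the other way. Ttr averaged 650 and 508 CPM in WT and KO astrocytes against 1235 and 541 in WT and KO microglia. None of these markers was at 0 in a whole group of astrocytes. Their part in the higher astrocyte levels of Il18 and Il33 was not tested.

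Levels of different genes were compared per kilobase of the principal transcript of the GENCODE annotation. On this scale Il1b led in microglia, with 208 ± 57.9 CPM per kb (SD, n = 3) in WT and 313 ± 34.4 in KO, followed by Il1a with 152 ± 12.6 and 231 ± 37.7 CPM per kb. The WT libraries of the 2 genes overlapped in range, and with the length of all exons joined Il1a came before Il1b, so their order depends on the length used. Nlrp3 came next, with 50.1 ± 31.7 CPM per kb in WT and 48.3 ± 7.98 in KO. Il18, with 29.3 ± 5.48 and 35.8 ± 8.96, and Pycard, with 27.0 ± 2.06 and 30.4 ± 5.65, did not differ beyond their spread, and the annotated Pycard transcript of 3.8 kb lowers its value. Casp4 (15.7 and 12.3 CPM per kb in WT and KO) and Casp1 (9.58 and 15.98) were in opposite order in the genotypes on this scale, with separate ranges in WT and overlapping ranges in KO, while with all exons joined Casp1 came before Casp4 in both. Il1rap, Il1rn and Il1r1 were the lowest, with 4.21, 1.70 and 0.574 CPM per kb in WT microglia. In astrocytes Il18 led by a wide margin, with 75.8 ± 19.3 CPM per kb in WT and 78.2 ± 33.8 in KO. The next genes, Il1b, Il1a and Il1rap, were between 3.99 and 7.31 CPM per kb in both genotypes and overlapped.

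The genotype comparison asked whether these genes differ between glia of mice labelled Kpna4 KO and WT, 20 h after LPS. In microglia the WT and KO libraries did not overlap for Il1a, Il1b and Casp1, which were higher in all 3 KO libraries than in all 3 WT libraries. None of the 10 genes was called, and neither was any of the 14191 genes tested (0 of all genes, a background of 0%, with edgeR's quasi-likelihood test at an adjusted p under 0.05). At an unadjusted p under 0.05 there were 3 members, the same Il1a, Il1b and Casp1, against 7.42% of all genes. The 3 members whose KO libraries were all above WT stand against 6.53% of all genes, and no member had all KO libraries below WT, against 6.57% of all genes. Of the 10 members 7 had a higher and 3 a lower fitted level in KO, with a median log2 fold change of 0.18, against a median of -0.001 over all genes. DESeq2 called 41 genes in this comparison and no member. The share of all counts taken by the 10 genes was 0.103%, 0.0952% and 0.0928% in WT and 0.135%, 0.122% and 0.129% in KO microglia, with no overlap. This share mostly restates its most abundant genes and is no separate result. Il1a averaged 300 and 457 CPM in WT and KO microglia, and Il1b 282 and 425 CPM. How often sums of other genes separate in this way was not tested.

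KO microglia exceeded WT microglia in Il1a by 0.58 on the log2 scale (SE 0.20, edgeR adjusted p = 0.587), or 1.49-fold. Its 3 WT libraries lay within 272 to 316 CPM, and KO replicate 1 at 542 CPM was the highest. Il1b differed by 0.57 (SE 0.22, edgeR adjusted p = 0.616), with WT replicate 1 at 192 CPM well below the other WT libraries. Casp1 differed by 0.72 (SE 0.30, edgeR adjusted p = 0.628), and its highest WT value of 17.6 CPM was close to its lowest KO value of 18.0 CPM. Over the 14 alternatives, which include leaving out each library, the log2 fold changes stayed positive, at 0.45 to 0.68 for Il1a, 0.35 to 0.69 for Il1b and 0.54 to 0.90 for Casp1, and the lowest edgeR or DESeq2 adjusted p was 0.201, 0.336 and 0.425. Beside these values, the microglia markers overlapped between the genotypes (16163 to 19372 CPM in WT, 15942 to 20014 in KO). Each of the 10 astrocyte markers and each of the 10 endothelial markers had a lower mean in KO microglia. The astrocyte markers summed to 333 to 727 CPM in WT and 374 to 400 CPM in KO microglia, and the endothelial markers to 35.3 to 98.3 and 32.8 to 41.2 CPM. The 7 ependymal and choroid plexus markers, mostly Ttr, summed to 847 to 2131 CPM in WT and 345 to 870 CPM in KO microglia, and 1 of them had a higher mean in KO. Of the fibroblast markers 0 of 6 had a higher mean in KO microglia (sums of 10.9 to 23.4 CPM in WT and 8.06 to 15.02 in KO), and of the pericyte and mural markers 1 of 8 (13.8 to 32.6 and 8.14 to 19.1 CPM). Of these lists only Lum, a fibroblast marker, was at 0 in a whole group, KO microglia. Their part in the genotype values was not tested.

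The other 7 members gave no such separation in microglia. Il18 (log2 fold change 0.27, SE 0.27), Pycard (0.15, SE 0.20), Il1rap (0.06, SE 0.29) and Il1r1 (0.21, SE 0.73) had fitted levels above WT, and Il1rn (-0.33, SE 0.60), Casp4 (-0.37, SE 0.31) and Nlrp3 (-0.09, SE 0.34) below. All of these libraries overlapped between the genotypes, and the edgeR adjusted p-values were 0.839 to 0.975. The Nlrp3 value rests on WT replicate 1. Without that library Nlrp3 was higher in KO by 0.58 on the log2 scale (edgeR adjusted p = 0.999).

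In astrocytes 7 members had enough counts to be tested, while Il1rn, Casp1 and Casp4 did not pass the filter on low counts. None of the 7 was called, nor was any of the 15755 genes tested (0 of all genes with edgeR, a background of 0%; 4 genes and no member with DESeq2). At an unadjusted p under 0.05 there were 0 members, against 2.37% of all genes. The WT and KO libraries of every tested member overlapped, against 2.39% of all genes with all KO libraries above WT and 5.74% with all below. The log2 fold changes were 0.48 for Il1a (SE 0.68), 0.73 for Il1b (SE 0.63), 0.53 for Nlrp3 (SE 0.73), 0.21 for Il1rap (SE 0.34), 0.11 for Il18 (SE 0.30), -0.07 for Il1r1 (SE 0.54) and -0.71 for Pycard (SE 1.18), all with an edgeR adjusted p of 0.999. The error was larger than the difference for all of these except Il1b. The best-measured member was Il18, with 438 to 1069 counts per library, with means of 59.2 ± 15.1 CPM over the WT and 61.1 ± 26.4 CPM over the KO libraries (SD, n = 3).

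**Figure D3:**
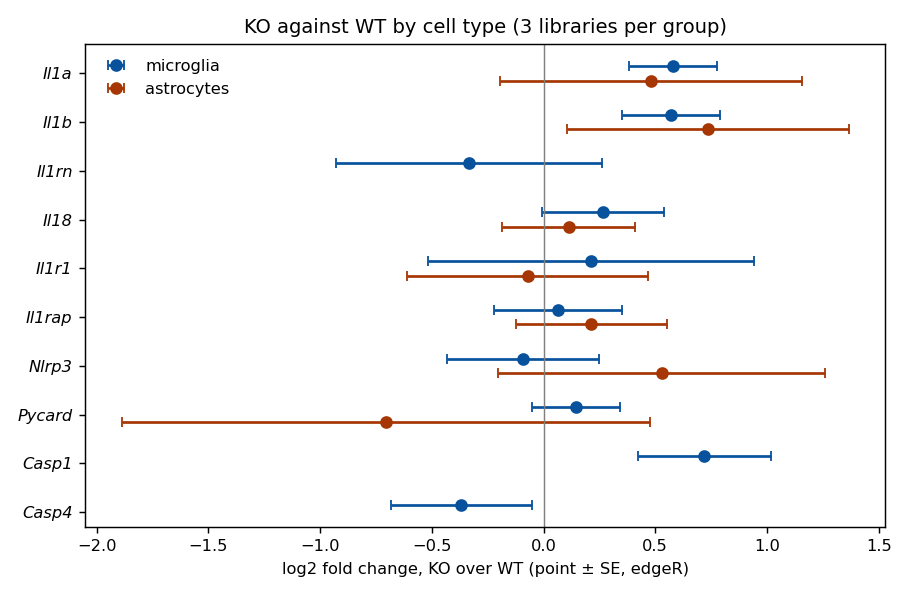
Points give the log2 fold change, KO over WT, on the x axis for each member in microglia (blue) and in astrocytes (brown), and bars are ± 1 SE from the edgeR fit of 3 against 3 libraries; Il1rn, Casp1 and Casp4 had too few astrocyte counts to be fitted. Il1a, Il1b and Casp1 in microglia lie farthest from 0 relative to their errors, between 0.57 and 0.72, and no member was called.

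Whether the genotype difference itself differed between the cell types was tested as an interaction in the fit of all 12 libraries. No member and no gene was called (0 of 17294 genes with edgeR, a background of 0%, with 1102 genes at an unadjusted p under 0.05; DESeq2 called 54 genes and no member). The member with the smallest unadjusted p was Casp4, whose KO minus WT difference was larger in astrocytes than in microglia by 2.78 on the log2 scale (SE 1.20, edgeR adjusted p = 0.747), and it was the only member with an unadjusted p under 0.05. Its astrocyte counts were 0 to 27 per library. For Il1b the difference was 0.24 (SE 0.65), for Il18 -0.06 (SE 0.42) and for Nlrp3 0.74 (SE 0.67), against a median of 0.16 over all genes.

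The balance of agonist and antagonist was read as the ratio of Il1b to Il1rn counts within a library, on a log2 scale with 1 count added to each. Where a library has no Il1rn count, the value is set by its Il1b count and the added count and so moves with depth. In microglia the log2 ratio was 5.12, 6.70 and 6.30 in WT and 7.29, 6.70 and 6.88 in KO. WT replicate 2 and KO replicate 2 were nearly equal, and the other KO values were above all WT values. The mean was 6.04 ± 0.82 in WT and 6.96 ± 0.30 in KO (SD, n = 3), a difference of 0.92 with a 2-sided exact permutation p of 0.1, the smallest that 3 against 3 libraries can give. In astrocytes the log2 ratio was 2.31, 4.52 and 3.60 in WT and 5.93, 4.31 and 7.53 in KO, a difference of 2.45 with overlapping groups (exact permutation p = 0.2). It rests on Il1rn counts of 0 in WT replicate 2 and in KO replicates 1 and 3. Within animals the ratio was higher in microglia than in astrocytes in 5 of 6 animals, by 1.80 on average (2-sided exact permutation test over sign changes, p = 0.0625). In 3 of the 6 animals, WT replicate 2 and KO replicates 1 and 3, the astrocyte ratio is set by the added count. The average and its p thus rest on that choice. KO replicate 3 was also the animal in which the ratio was lower in microglia (-0.65).

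**Figure D4:**
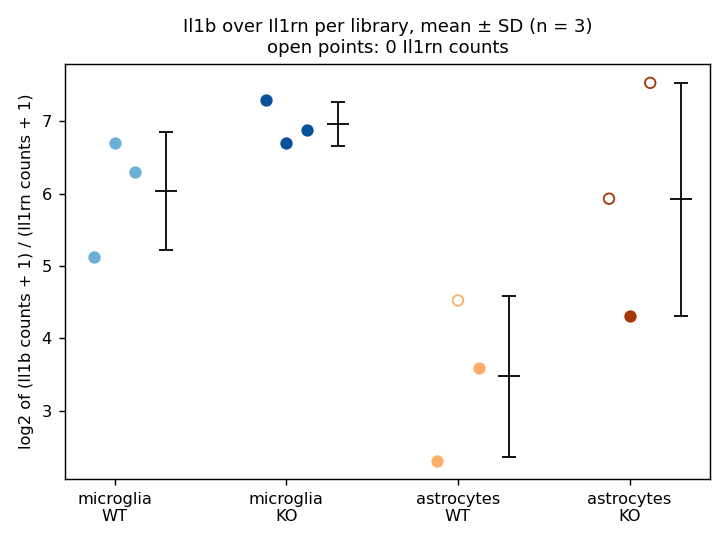
The y axis is the log2 ratio of Il1b to Il1rn counts, each plus 1, for each library (points) with the mean ± SD of 3 libraries beside them; open points had no Il1rn count. KO microglia lie between 6.70 and 7.29 and WT microglia between 5.12 and 6.70, while the astrocyte groups spread from 2.31 to 7.53 and overlap.

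A list of 52 other genes of the pathway, of which 51 were found in the tables, was read in the same way by role. Between the cell types 38 could be tested. Of these 28 were called higher in microglia and 4 higher in astrocytes, against 28.2% and 36.4% of all genes. The median log2 fold change was 1.79 against -0.19 over all genes. Among ligands only Il33, an alarmin of the family, had enough counts, and it was called higher in astrocytes: 18.4 to 26.4 CPM in WT and 17.7 to 29.4 CPM in KO astrocytes against 0 to 2.11 CPM in microglia (log2 fold change -4.98, SE 0.64, edgeR adjusted p = 7.72e-06). Of 6 receptors and soluble binders tested, 5 were called higher in microglia, among them the IL-18 receptor accessory chain Il18rap (5.81, SE 0.63) and the IL-33 receptor Il1rl1 (5.57, SE 0.69). The sixth, Il1rapl1, a synaptic relative of the accessory chain, was called higher in astrocytes (-5.60, SE 0.64). So Il33 and its receptor gene Il1rl1 differed between the cell types in opposite directions, as did Il18 and Il18rap. Il1rl2 was also among the 5 called higher in microglia (4.45, SE 0.80). Il1rl1, Il18rap and Il1rl2 did not pass the filter on low counts in astrocytes alone, nor Il1rapl1 in microglia alone. Each entered this fit through the cell type where it was higher, which favours a call in that direction. The counts of 5 and 28 called higher in microglia include such genes. The ligand-binding chain Il18r1 had at most 20 counts in any library and was not tested.

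All 11 other inflammasome sensors and triggers that could be tested, of 16 listed, were called higher in microglia, against 28.2% of all genes. Among them Nlrc4 did not pass the filter on low counts in astrocytes alone. Its call rests on 0 to 22 microglia counts per library (4.09, SE 1.66, edgeR adjusted p = 0.0454). The largest log2 fold changes were those of Nlrp1b (5.81, SE 0.47), Naip2 (5.63, SE 0.34) and the DNA sensor Aim2 (5.34, SE 0.48), and members of the Nlrp1 and Naip families have near-identical copies among which reads may be split. Aim2 was at 83.8, 139 and 97.2 CPM in WT microglia and at 135, 119 and 116 CPM in KO microglia. Of 5 other proteases and pore formers, 3 were called higher in microglia, led by the pore former Gsdmd, which caspase-1 and the LPS-binding caspase cleave (4.82, SE 0.36), and Casp8 (4.17, SE 0.26). Casp12 was called higher in astrocytes (-2.45, SE 0.81, edgeR adjusted p = 0.0155) on 2 to 127 astrocyte counts, and did not pass the filter in microglia alone. Among the 15 transducers 9 were called higher in microglia, with the adaptor Myd88 (3.12, SE 0.21), the inhibitory kinase relative Irak3 (3.08, SE 0.57) and the kinase Irak4 (2.14, SE 0.32) in front. Tollip was the transducer called higher in astrocytes (-0.47, SE 0.14), which is -0.28 relative to the median of all genes. The other 5 passed in neither direction.

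**Figure D5:**
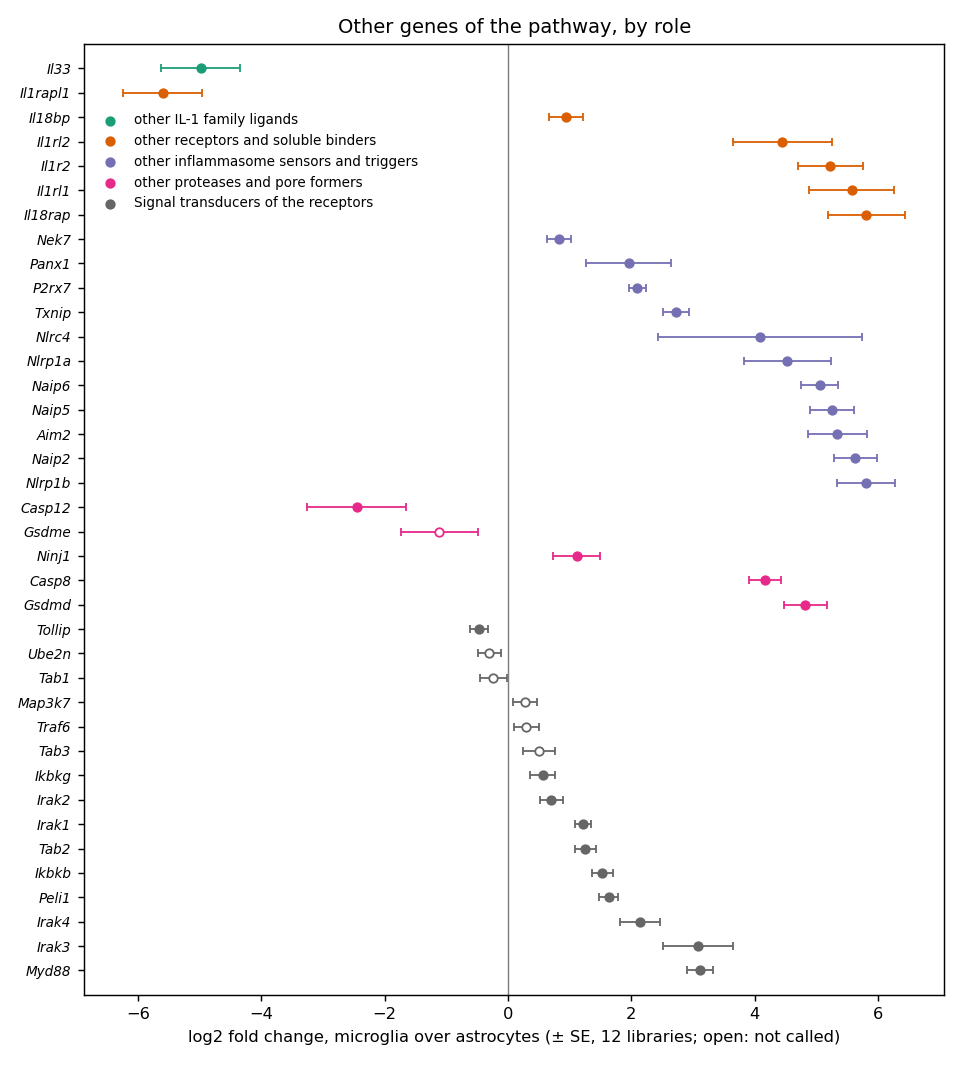
The x axis is the log2 fold change of microglia over astrocytes from the edgeR fit of 12 libraries, with bars of ± 1 SE, for the 38 other pathway genes tested, coloured by role; filled points were called. All sensors and triggers lie to the right of 0, Il33, Il1rapl1 and Casp12 lie far to the left, and the transducers lie between -0.47 and 3.12.

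Between the genotypes none of these other genes was called in microglia (0 of 36 tested with edgeR) or in astrocytes (0 of 34). Before adjustment, 2 of 36 had a p under 0.05 in microglia, against 7.42% of all genes, and 1 of 34 in astrocytes, against 2.37%, which is no more than the background in the former and close to it in the latter. In microglia 25 had a higher and 11 a lower fitted level in KO, with a median of 0.12, and 5 had all KO libraries above WT, against the background of 6.53%. In astrocytes 21 were higher and 13 lower, with a median of 0.08. The transducers are singled out here after their values were seen. In microglia 13 of 15 were higher in KO with a median of 0.19, and 49.9% of all genes tested were higher. None of the 15 had an unadjusted p under 0.05, and in astrocytes 9 were higher and 6 lower. The 1 gene with an unadjusted p under 0.05 in astrocytes was Naip5 (1.84, SE 0.84, edgeR adjusted p = 0.999), on 4 to 114 counts per library. Il1r2, the decoy receptor that binds IL-1 without signalling, and Il18rap were the 2 such genes in microglia. All are named here after their values were seen. Il1r2 was at 7.92, 22.8 and 12.9 CPM in WT microglia and at 38.4, 42.9 and 34.1 CPM in KO microglia. The KO libraries were all above the WT libraries, and the difference was 1.39 on the log2 scale (SE 0.34, edgeR adjusted p = 0.439). Il18rap was at 16.8, 32.1 and 32.9 CPM in WT and at 44.2, 38.1 and 40.8 CPM in KO microglia, a difference of 0.57 on the log2 scale (SE 0.26, edgeR adjusted p = 0.669).

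The genes whose pattern over the 12 libraries was most like that of Il1b were found by the root mean square difference of log2(CPM + 1), after each gene was centred on its mean, among 14352 tested genes. The 5 closest were Ncf1 (0.29), a subunit of the phagocyte NADPH oxidase, the lectin Siglece (0.32), the complement peptide receptors C5ar2 (0.34) and C3ar1 (0.36), and Rhoh (0.35), a small GTPase of blood cells. Ncf1, for example, had means of 437 and 541 CPM in WT and KO microglia and of 10.2 and 12.3 CPM in WT and KO astrocytes. The closest members were Il1a at 0.56, Pycard at 0.62 and Nlrp3 at 0.81. For Il1r1 the 5 closest genes were Tceal6 (0.32), E2f5 (0.33), Herc3 (0.34), Cir1 (0.35) and Prokr2 (0.36). In both genotypes each of these 5 had a higher mean in astrocytes than in microglia, and Tceal6 and Prokr2 did not exceed group means of 2.03 and 1.77 CPM. The 12 points share 6 animals and 2 cell types, and the likeness is a description of these libraries.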

How the data were processed

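RNA from 12 libraries was analysed, 3 for each combination of sorted cell type and genotype. The authors deposited estimated counts per gene symbol, 1 table per cell type, not normalized and 1 column per library. The submitters' processing notes name STAR 2.7.10b, RSEM 1.3.3, the genome build GRCm39 and limma. The annotation used for counting is not named there. Estimated counts were rounded, and CPM are rounded counts scaled to a library total of 1 M. Libraries of a group come from separate animals, and a check for duplicate deposits found none (chi-square over its degrees of freedom, 29.8 to 117).

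Genes were tested with edgeR 4.0.16 in R 4.3.3 (quasi-likelihood, TMM, filterByExpr with a minimum count of 10, Benjamini-Hochberg over all genes tested, adjusted p under 0.05). Genotypes were compared in the 6 libraries of each cell type, and cell types and the interaction in 1 fit of all 12 libraries. SEs are the log2 fold change over the square root of F. Single values were compared with 2-sided exact permutation tests. The fits across genes were tested on simulated counts.

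The animal numbers in the labels pair each microglia library with an astrocyte library. Across genes their deviations from the group means correlated at 0.0377, 0.186 and 0.223 in WT and at 0.134, -0.0227 and 0.211 in KO. The animal entered as a block only in an alternative.

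Alternatives were DESeq2 1.42.0, its size factors in edgeR, library totals alone, no filter, a minimum count of 50, 8 abundant non-coding RNAs left out, each replicate left out, replicate or animal blocks, all 12 libraries in 1 fit, and 0.5 counts added in the ratio.

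The 10 genes, the lists and the tests were chosen with earlier results of these data known. All 10 are described. Other pathway genes were named if called between genotypes or, per role, as up to 3 with the largest change between cell types among the called. Tollip, Il18r1, Il1rl2, Nlrc4 and, between genotypes, Il1r2, Il18rap and Naip5 fall outside this rule and were named after their values were seen. The closest 5 genes were named for Il1b and Il1r1. Il36a, Il36b and Il36g were found under older symbols, and Il36rn was not matched. Gene lengths come from GENCODE on GRCm38, whose coordinates were not joined to the counts.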

Additional observations from a re-analysis of the deposited data

How the results depend on the processing

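Of 495 values computed for the members under alternatives, 451 kept their direction and side of the threshold. No member was called for genotype or interaction under any alternative, while the number of genes called moved from 0. In microglia it was 41 with DESeq2, 121 without a filter on low counts, 41 with all 12 libraries in 1 fit and 30 with the replicate block, and 0 to 2 with a library left out. In astrocytes it was 4 with DESeq2, 17 without a filter and 0 to 1 with a library left out. For the interaction it was 54 with DESeq2, 160 with no filter, and 0 to 6 when 1 animal was dropped. The cause was not tested. WT and KO libraries share only replicate numbers (same-numbered deviations correlated at 0.0857, 0.0669 and 0.350 in microglia and at -0.0170, 0.0681 and 0.445 in astrocytes). Under the replicate block Nlrp3 in microglia became 0.09 and Pycard in astrocytes 0.11, and no call on a member changed, also with the animal as a block. The log2 fold changes of these members, none called, changed sign with a library left out: in microglia Nlrp3 (-0.37 to 0.58), Il1rap (-0.073 to 0.33, and -0.027 in the fit of 12 libraries) and Il1r1 (-0.64 to 0.76), in astrocytes Pycard (-1.22 to 0.95), Il18 (-0.20 to 0.35) and Il1r1 (-0.29 to 0.23), and between cell types Il1rap (-0.27 to 0.043). Interaction values changed sign for Il1a (-0.70 to 0.96), Il1b (-0.51 to 0.76), Casp1 (-0.68 to 2.13), Il1rap (-0.17 to 0.34), Il1r1 (-0.91 to 0.34) and Pycard (-1.37 to 0.76). With library totals alone the interaction was -0.26 for Il1a, -0.050 for Il1b and -0.18 for Casp1. For Il1a it was also -0.061 with DESeq2, -0.071 with its size factors, -0.19 without a filter, -0.0086 with a minimum count of 50 and -0.18 without the abundant non-coding RNAs, and for Casp1 it was -0.083 without a filter and -0.069 without those RNAs. Scaling by library totals moved the median of all genes in astrocytes by genotype to -0.11. In astrocytes, SEs of 0.68, 0.73 and 1.18 for Il1a, Nlrp3 and Pycard limit which genotype differences could be seen at this depth.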
